A study of Mus musculus with 38 samples.

Results

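The spleen arrays of 38 BXD strains fell into a higher and a lower group on the signal of 1 gene, Slpi, with 19 arrays in each. The groups were chosen by the Slpi signal itself. The 38 log2 intensities of its only probe, ILMN_1256817, were put in order and divided at the widest gap between neighbouring arrays, so the Slpi values are a description and were not tested. BXD strains are inbred mouse lines derived from crosses of C57BL/6 with DBA/2, so that each line is homozygous for a different mixture of segments from these parents. Each strain had 1 array, hybridised with RNA of spleens pooled from 2 mice of one sex, aged 8 to 12 weeks, with no treatment in the labels. The higher Slpi level held 9 strains numbered up to 42 and 10 numbered 43 and above, and the lower level held 10 and 9. Of the 3 arrays labelled female, BXD96 was in the higher level and BXD18 and BXD38 in the lower, and the other 35 were labelled male. No genotypes were used, so the groups are called levels of Slpi and not alleles.

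Slpi encodes secretory leukocyte peptidase inhibitor, a small secreted protein with WAP domains that blocks neutrophil elastase and cathepsin G. Epithelia of mucosal surfaces, neutrophils and macrophages make it, and it dampens inflammatory signalling in macrophages. In the mouse it lies on chromosome 2 within a cluster of genes for other WAP-domain proteins. In a recombinant inbred panel, neighbouring genes are inherited together, and strains that differ at 1 locus tend to differ in the parental origin of the genes around it. A strain variant under a probe can also alter its signal, and such a variant and a difference in expression cannot be told apart here.

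The 250 bases before the annotated starts of Slpi and Sys1 are shown because Slpi defines the levels and Sys1, its neighbour, had the smallest p between them. Both are the reference strain's sequence, taken from RefSeq on build GRCm38.p6 and written 5′ to 3′ on each gene's own strand. Slpi is at chr2:164356508-164356757 on the minus strand and Sys1 at chr2:164460721-164460970 on the plus strand. Capitals mark matches, on either strand, to any of 5 searched motifs.
Slpi: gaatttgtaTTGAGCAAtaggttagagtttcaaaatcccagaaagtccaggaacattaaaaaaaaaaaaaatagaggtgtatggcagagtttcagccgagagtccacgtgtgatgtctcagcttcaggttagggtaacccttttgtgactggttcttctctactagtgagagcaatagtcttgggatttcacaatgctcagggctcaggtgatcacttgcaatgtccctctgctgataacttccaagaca
Sys1: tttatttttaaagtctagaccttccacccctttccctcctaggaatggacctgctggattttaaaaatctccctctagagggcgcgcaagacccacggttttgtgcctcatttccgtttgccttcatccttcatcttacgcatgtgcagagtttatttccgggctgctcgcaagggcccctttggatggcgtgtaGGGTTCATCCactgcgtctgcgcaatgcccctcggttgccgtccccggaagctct
The Slpi window held 1 match, 241 bases before the start, to the C/EBP pattern TTGCNNAA, which 9.56% of 32851 promoter windows of the same length held. The Sys1 window held 1 match, 55 bases before the start, to the NF-kB pattern, written GGG, any 5 letters and CC, which 45.8% of the windows held. The TATA box TATAAA, the AP-1 pattern TGANTCA and the GC box GGGCGG, held by 12.4%, 6.75% and 32.7% of the windows, were in neither sequence. A GC box can overlap an NF-kB pattern. Each match describes letters in the window and not a bound site.

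The Slpi signal had 2 well separated levels. After background correction and quantile normalization, the lower level ran from 4.995 to 7.17 on the log2 intensity scale with a median of 5.74. The higher level ran from 11.25 to 13.69 with a median of 13.09. The gap between the levels was 4.08 and the next widest gap between neighbouring arrays was 1.17. The array just below the gap was BXD70 at 7.17, and the array just above it was BXD48 at 11.25, apart from the other 18 higher arrays, which began at 12.42 with BXD44. The level means were 12.98 ± 0.56 and 5.83 ± 0.65 (SD, n = 19 each).

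**Figure D1:**
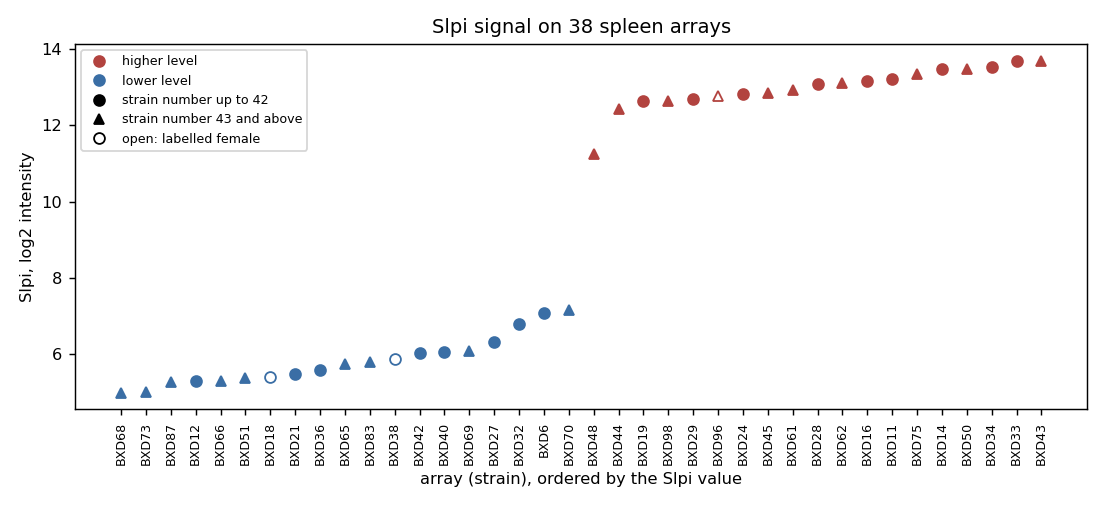
Log2 intensity of the Slpi probe (y axis) on each of the 38 arrays, ordered by that value (x axis, strain), with circles for strains numbered up to 42, triangles for later strains and open symbols for arrays labelled female. The lower arrays end at 7.17 and the higher arrays start at 11.25, and both strain series and both sexes occur at both levels.

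The size of the Slpi difference depended on how the background was treated, because the lower level sat near background. The Slpi probe had a deposited detection p-value of 0.01 or more on 10 of the 19 lower arrays and below it on the other 9, and below it on all 19 higher arrays. The difference of level means was 7.15 log2 units in the corrected values, 6.004 with no background correction and 4.95 in the authors' processed table. In the intensities as deposited, the lower arrays ran from 87.7 to 256.5 with a median of 108.6, and the higher arrays from 2089 to 16174 with a median of 8311. All 38 arrays fell on the same side of the widest gap in the deposited intensities and in the authors' processed table.

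Depth and tissue identity overlapped between the levels. Each array had between 13791 and 15732 probes detected, with medians of 14921 in the higher and 14745 in the lower level. The mean log2 intensity of 8 measured spleen identity markers ran from 12.00 to 12.60 in the higher level and from 12.20 to 12.58 in the lower. Genes of the pancreas, an organ that touches the spleen, had higher means in the higher level. All 24 of the 24 pancreas genes measured had a higher mean in the higher level, with a median log2 difference of 2.03 beside -0.01 over all probes. Their mean log2 intensity ran from 5.38 to 14.48 (median 11.58) in the higher level and from 5.41 to 14.02 (median 7.70) in the lower, and it was over 10 on 11 higher and 6 lower arrays. No pancreas gene passed the test between the levels, and 1, the islet hormone gene Gcg (0.38 ± 0.16, SE), had an unadjusted p under 0.05. The Gcg probe was detected on only 3 arrays, the fewest that the filter allowed, so its p carries little weight. Its medians were 4.80 in the higher and 4.74 in the lower level. The 4 pancreas genes with the widest differences were digestive genes, the trypsin gene Try4 (2.57 ± 1.33, SE), the elastase gene Cela2a (2.52 ± 1.32), the chymotrypsinogen gene Ctrb1 (2.46 ± 1.34) and the colipase gene Clps (2.44 ± 1.34).

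The levels were compared at every probe other than that of Slpi, with the 19 strains of a level as its replicates. Of 17582 probes tested with limma, 4 passed a Benjamini-Hochberg adjusted p of 0.05 (0.0228%), 1 of them higher and 3 lower in the higher Slpi level. The smallest adjusted p among the rest was 0.107. At an unadjusted p of 0.05, 540 probes passed (3.07%). Because each strain had 1 pool, these p-values measure the spread between strains, technical error included. In spleen tissue, fewer cells of a type and less RNA per cell cannot be told apart. Of the 4 called probes, 3 were in named genes of chromosome 2, which had 1008 named probes tested (0.298% called), and the remaining probe had no gene symbol in the platform annotation. On the other chromosomes, 0 of 11307 named probes passed, while 292 (2.58%) had an unadjusted p under 0.05.

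Sys1 had the clearest difference and went the opposite way to Slpi. It encodes a membrane protein of the Golgi that recruits a small GTPase there, and it starts 5 genes after Slpi in the reference gene order, unmeasured genes included. In the lower level its log2 intensity ran from 8.38 to 9.35 with a median of 9.06, and in the higher level from 7.50 to 9.18 with a median of 8.00. A single higher array, BXD48 at 9.18, lay within the range of the lower arrays, and the other 18 higher arrays reached at most 8.36. Sys1 was lower in the higher Slpi level by a log2 difference of -1.02 ± 0.10 (SE, limma adjusted p = 2.6e-08, 95% interval -1.22 to -0.82). The difference was -0.44 with the detection p-values as deposited and -0.58 in the authors' processed table, where the lower end of the scale is compressed, and it passed the threshold under both. A second, dimmer Sys1 probe, ILMN_1255070, did not follow. Its log2 difference was 0.10 ± 0.09 (SE, limma unadjusted p = 0.274), with a range of 5.47 to 6.63 in the higher and 5.34 to 6.42 in the lower level.

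The unnamed probe ILMN_1227948 divided the arrays nearly as well as Sys1. Its log2 intensity ran from 6.88 to 7.52 in the lower level (median 7.15) and from 5.84 to 7.24 in the higher level (median 6.36). BXD48, at 7.24, was again the only higher array inside the lower range. The log2 difference was -0.81 ± 0.10 (SE, limma adjusted p = 1.8e-06). It was -0.09 with the detection p-values as deposited and -0.18 in the authors' processed table, past the threshold in both. Its gene and its chromosome are not given in the tables used here.

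Tomm34 was the only called probe that was higher in the higher Slpi level. It encodes a co-chaperone that binds Hsp70 and Hsp90 and takes part in delivering proteins to mitochondria, and it starts 15 genes before Slpi. Its log2 intensity ran from 9.42 to 10.16 (median 9.93) in the higher and from 9.27 to 9.80 (median 9.61) in the lower level, with 5 higher arrays inside the lower range. The log2 difference was 0.33 ± 0.06 (SE, limma adjusted p = 0.0149).

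Ada, 22 genes before Slpi, was lower in the higher level and close to the threshold. It encodes adenosine deaminase, an enzyme of purine salvage that lymphocytes depend on. Its log2 intensity ran from 6.63 to 8.31 (median 7.32) in the higher and from 7.35 to 8.42 (median 8.00) in the lower level, and 9 higher arrays lay inside the lower range. The log2 difference was -0.58 ± 0.11 (SE, limma adjusted p = 0.0404). It was -0.12 with the detection p-values as deposited (adjusted p = 0.101) and -0.21 in the authors' processed table (adjusted p = 0.0896). The call was lost in 28 of the 38 fits that left out 1 array, with adjusted p-values from 0.00307 to 0.0895. With the pancreas score as a covariate the adjusted p was 0.174 and the log2 difference -0.48, while Sys1 (-0.99), ILMN_1227948 (-0.81) and Tomm34 (0.36) passed in that fit.

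**Figure D2:**
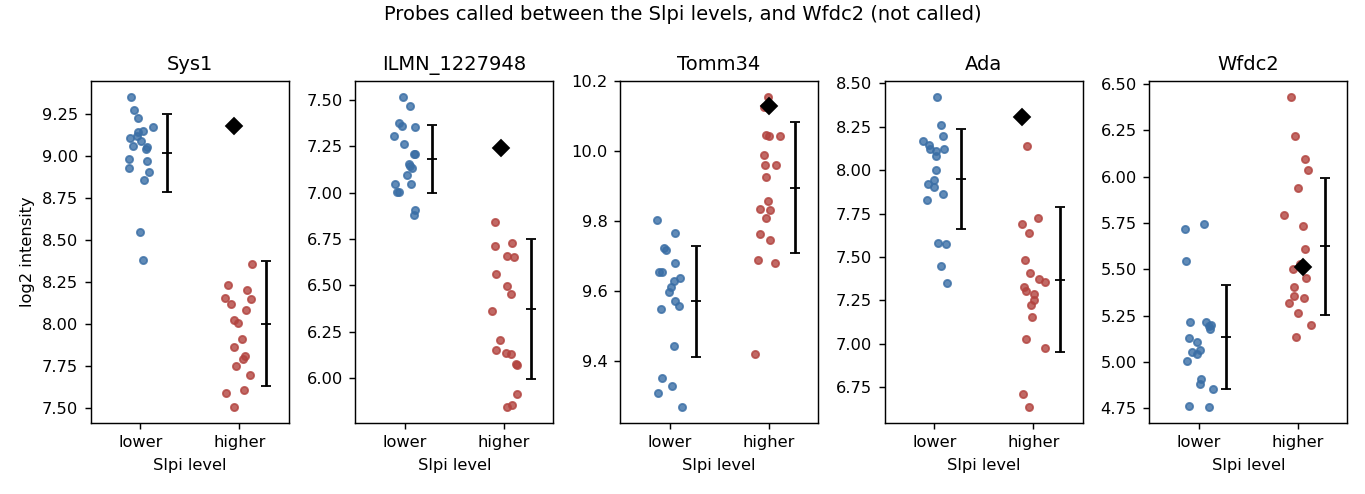
Log2 intensity (y axis) of the 4 called probes and of Wfdc2 on each array, by Slpi level (x axis), with the mean and SD of each level as bars and BXD48 as a black diamond. For Sys1 and ILMN_1227948 the diamond is the only higher array within the range of the lower arrays.

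BXD48, singled out after the values were seen, stood apart from the other higher arrays on several probes at once. Its Slpi value of 11.25 was the lowest of the higher level, and its deposited intensity of 2089 compares with a median of 8311 there. Its Sys1, ILMN_1227948 and Ada values of 9.18, 7.24 and 8.31 were each the highest of the higher level and inside the lower level's range. Its Tomm34 value of 10.13 was above every lower array, whose maximum was 9.80. Cd40, a receptor of B cells whose gene starts 49 genes after Slpi, was at 9.88 on BXD48 against at most 9.48 on the other higher arrays. Mmp9, the gelatinase of neutrophils, 45 genes after Slpi, was at 8.69 against at least 9.22 on them. BXD48 also had the lowest mean log2 intensities of all 38 arrays for erythroid genes (8.90) and spleen identity markers (12.00). Its neutrophil mean was 9.47 and its B cell mean 11.41, against higher-level medians of 10.27 and 11.05. Whether its cell composition bears on its Mmp9 and Cd40 values was not tested. Without BXD48 the higher and lower arrays did not overlap for Sys1 (at most 8.36 against at least 8.38) or for ILMN_1227948 (at most 6.84 against at least 6.88). The log2 difference of Sys1 was then -1.08 ± 0.08 (SE, limma adjusted p = 6.33e-12) and that of Ada -0.63 ± 0.10 (adjusted p = 0.00307), and 4 probes were called. Tomm34 differed by 0.31 ± 0.06 without BXD48 (limma adjusted p = 0.0255), against 0.33 with it. BXD48 was picked for its values on these same probes, so leaving it out had to widen the differences of Sys1, ILMN_1227948, Ada, Cd40 and Mmp9. The values without it are therefore a description and not further support.

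**Figure D3:**
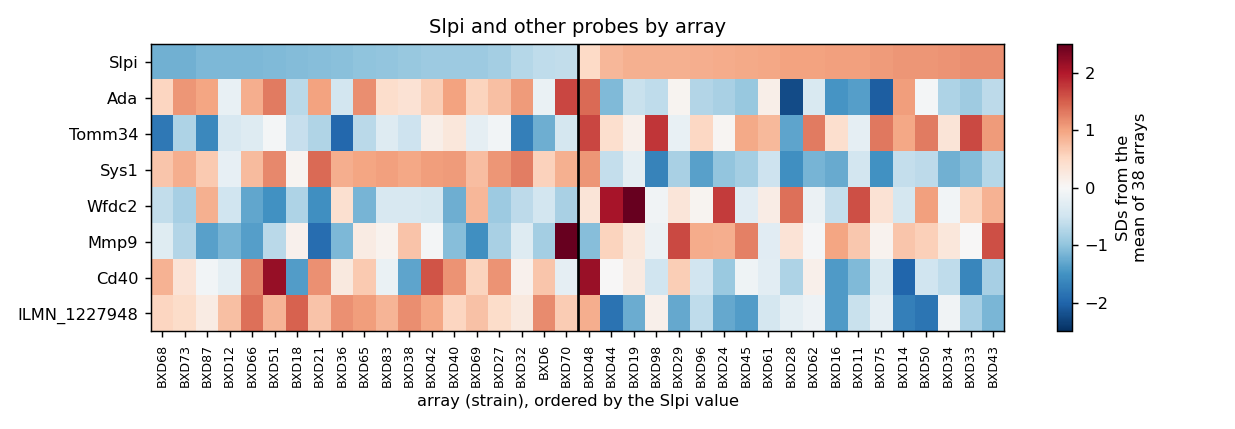
Slpi and 7 other probes (rows, Ada to Cd40 in chromosome order) on the 38 arrays (columns, ordered by the Slpi value), coloured by the number of SDs from the mean of all arrays, with a black line at the gap. In the Sys1 and ILMN_1227948 rows most arrays left of the line are red and most right of it blue; BXD48, the first array to its right, is red in both, and the Mmp9 and Cd40 rows are mixed.

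The share of small p-values was higher near Slpi than along the rest of chromosome 2. The reference gene order put 791 of the measured genes before Slpi and 120 after it. Of the nearest 20 probes, which lay within 24 genes of Slpi, 3 were called and 6 (30%) had an unadjusted p under 0.05, with a median absolute log2 difference of 0.119. Of the next 20, 3 (15%) did, and of the 40 after those, out to 116 genes away, 6 (15%). Farther out the share was 2.5% of 80 probes, 5.62% of 160 and 2.18% of 688. The 3.07% over all probes came with a median absolute log2 difference of 0.0601. Within the 40 measured genes on either side, 15 of 89 probes (16.9%) had an unadjusted p under 0.05 and all 3 chromosome 2 calls lay there. None was called beyond that.

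**Figure D4:**
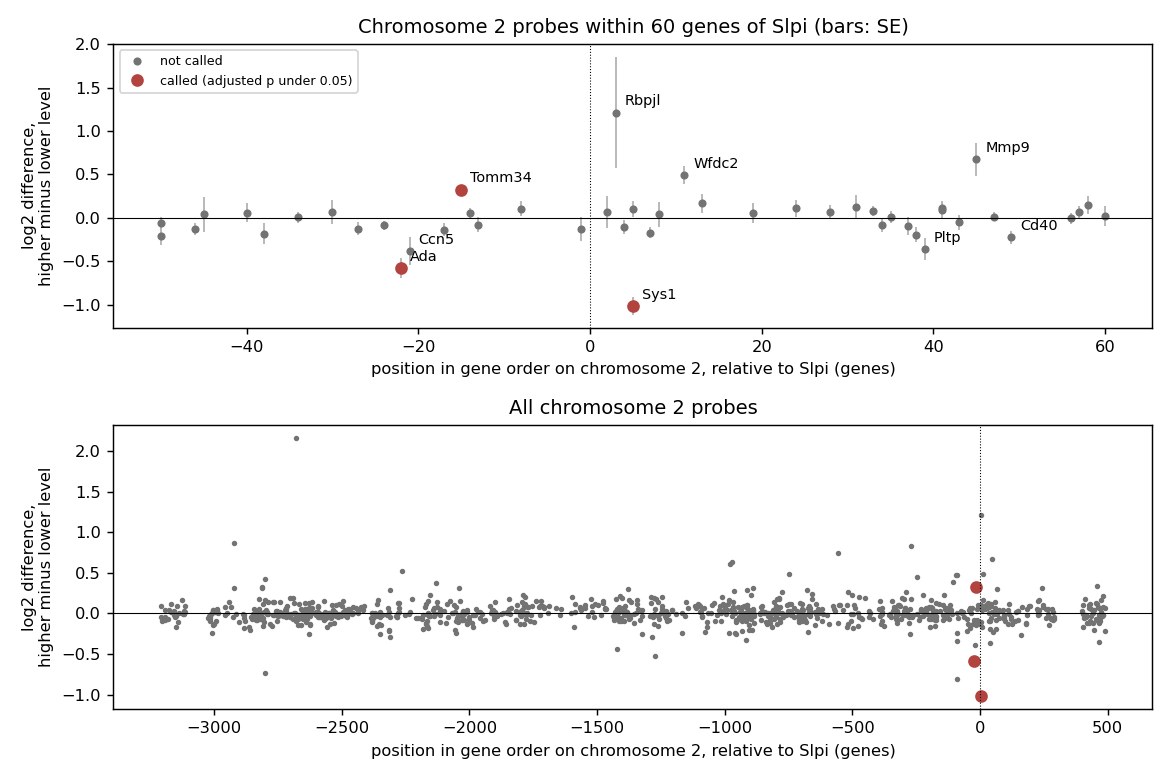
Log2 difference between the levels, higher minus lower (y axis), against position in gene order relative to Slpi (x axis, genes), for chromosome 2 probes within 60 genes (top, bars are SE) and for all of them (bottom). Red points are Ada, Tomm34 and Sys1, the only called probes of the chromosome, and all lie within 22 genes of Slpi.

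Apart from Sys1, no measured gene within 8 genes of Slpi passed the test. These were chosen by position after the values were seen. Before Slpi, the WAP-domain gene Wfdc15a differed by 0.10 ± 0.09 on the log2 scale (SE), and the seminal vesicle protein gene Svs5, 1 gene before it, differed by -0.13 ± 0.14. On the other side, the matrix protein gene Matn4 differed by 0.06 ± 0.19 and the syndecan gene Sdc4, which encodes a cell-surface proteoglycan and starts between Slpi and Sys1, by -0.11 ± 0.08. The probes of Wfdc15a, Svs5 and Matn4 were dim, detected on 16, 24 and 20 arrays, so a difference in these genes could be missed. Pigt, a subunit of the enzyme that attaches GPI anchors, 8 genes after Slpi, differed by 0.04 ± 0.14. Dbndd2, 7 genes after Slpi, differed by -0.17 ± 0.06 and had an unadjusted p of 0.0107 (limma), which did not pass adjustment. Rbpjl, a transcription factor of pancreatic acinar cells that starts 3 genes after Slpi, ran from 5.04 to 12.41 in the higher level and from 5.19 to 10.11 in the lower. Its log2 difference of 1.21 ± 0.64 did not pass (limma unadjusted p = 0.066), and it is 1 of the 24 measured genes of the pancreas list.

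Wfdc2, a WAP-domain gene like Slpi and 11 genes after it, came closest to the threshold without passing. Its log2 intensity ran from 5.13 to 6.43 (median 5.51) in the higher and from 4.76 to 5.74 (median 5.11) in the lower level, and its probe was detected on only 8 arrays. The log2 difference was 0.49 ± 0.10 (SE, limma adjusted p = 0.107). Wfdc2 was called when BXD69 alone or BXD87 alone was left out, and in no other fit that left out 1 array. These arrays held its highest values of the lower level (5.72 and 5.74), so leaving out either had to widen the difference. The highest Wfdc2 values were those of BXD19 (6.43), BXD44 (6.22) and BXD24 (6.09), which had pancreas scores of 14.21, 13.92 and 12.30. BXD16, with a pancreas score of 12.64, had the lowest Wfdc2 value of the higher level (5.13). The relation of Wfdc2 to the pancreas genes was not tested. Mmp9 ran from 8.69 to 10.55 (median 9.81) in the higher and from 8.12 to 11.33 (median 8.92) in the lower level. The highest value of Mmp9 was that of BXD70, the lower array nearest the gap, which also had the highest neutrophil score. The Mmp9 log2 difference was 0.68 ± 0.19 (SE, limma unadjusted p = 0.00095), which did not pass adjustment, and it was called when BXD70 alone, or BXD70 and BXD48, were left out. Cd40 (-0.23 ± 0.08) and the phospholipid transfer protein gene Pltp (-0.36 ± 0.13) had unadjusted p-values of 0.005 and 0.0081 and did not pass adjustment.

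No other named gene of chromosome 2 that met a rule for 2 levels had them arranged over the strains as those of Slpi were. A probe was counted as having 2 levels where its widest gap was at least 0.3 log2 units and 0.25 of its range and left at least 5 arrays on each side. Of the 17582 probes, 307 had 2 levels, 12 of them in named genes of chromosome 2, and 8 had a gap as wide as that of Slpi. The arrays that departed from the division by Slpi were counted for each probe in whichever direction, the same or the inverse, left fewer. The closest of the 12 in arrangement was Kif3b, a kinesin motor gene at position -272 relative to Slpi in gene order, and 13 of the 38 arrays departed for it. Over all 307 probes the fewest departing arrays were 10. Sys1 did not meet the rule and was not among the 307. It still followed the division by Slpi inversely, apart from BXD48, with higher arrays at most 8.36 and lower arrays at least 8.38.

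On the other chromosomes, no gene passed. The smallest adjusted p was 0.553, for Chic1 on the X chromosome, which encodes a membrane-associated protein and had a log2 difference of -0.37 ± 0.09 (SE). Next was Spint2 on chromosome 7, a Kunitz inhibitor of serine proteases, at 0.29 ± 0.07 (limma adjusted p = 0.704). Its probe was dim, detected on only 10 arrays, with means of 5.61 in the higher and 5.32 in the lower level. Of the 15 named probes with the smallest p elsewhere, named after their values were seen, 7 were on chromosome 1 and 12 were lower in the higher Slpi level. Those on chromosome 1 included the interferon-inducible genes Ifi205 (-1.47 ± 0.43) and Ifi208 (-0.97 ± 0.31) and the lymphocyte receptor gene Slamf6 (-1.43 ± 0.47). Chromosome 1 had 42 of 678 probes (6.19%) at an unadjusted p under 0.05 and 0 called. For chromosome 2 as a whole this was 41 of 1008 (4.07%). Whether the 7 on chromosome 1 are separate signals was not tested. Ifi205 itself had 2 levels with 19 arrays each, arranged inversely to those of Slpi, and 10 of the 38 arrays departed from that inverse arrangement. That was the fewest over the 307 probes with 2 levels, and 7 probes shared it.

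Genes that act with Slpi or resemble it did not pass the test between the levels. Of 27 listed genes of WAP and Kunitz inhibitors, 9 were measured, 8 had a higher mean in the higher Slpi level, and the median log2 difference was 0.117. Besides Wfdc2 and Spint2, the widest were Spint1, an epithelial inhibitor of the same class as Spint2, at 0.61 ± 0.35 (SE), and Wfdc6a at 0.17 ± 0.11. The WAP genes Wfdc2, Wfdc6a, Wfdc13, Wfdc15a and Wfdc16 start within 24 genes of Slpi, and such neighbours are not independent. Their probes were dim, detected on 8, 29, 11, 16 and 30 arrays. Of the proteases that Slpi inhibits and its partners, 16 were measured and the median log2 difference was 0.05, with 11 higher and 5 lower. The neutrophil elastase gene Elane differed by 0.18 ± 0.33, the mast cell protease gene Mcpt4 by 0.15 ± 0.25 and the cathepsin G gene Ctsg by 0.12 ± 0.40. Other antiproteases of leukocytes had a median of 0.01 over 16 genes, the widest being Serpina3n, an acute-phase serpin, at 0.21 ± 0.18. Of 14 Toll-like receptor and inflammatory response genes, 9 had a lower mean, the median was -0.02, and the cytokine-signalling inhibitor Socs3 differed by -0.19 ± 0.15. None of the genes in any of the 13 lists was called.

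No gene of the cell type lists passed the test between the levels. Of 17 B cell genes, 15 had a lower mean in the higher Slpi level, with a median log2 difference of -0.08. Of these, 3 had an unadjusted p under 0.05, among them Cd40 of chromosome 2 and Ebf1, a transcription factor of early B cells (-0.18 ± 0.07, SE). A second Ebf1 probe, ILMN_2707452, differed by -0.14 ± 0.08 (limma unadjusted p = 0.110). Of 16 T cell genes, 13 had a higher mean with a median of 0.09, the widest being the T cell receptor-associated gene Cd6 (0.25 ± 0.10). Neutrophil genes had a median of 0.06 over 12 genes, macrophage genes 0.05 over 13, erythroid genes 0.05 over 14 and stromal genes 0.02 over 17. Of 13 epithelial genes, 12 had a higher mean with a median of 0.17. The trefoil factor gene Tff2 (2.31 ± 1.18) and the mucin gene Muc1 (0.68 ± 0.42) were the widest of them, beside the pancreas genes above, and their relation to those genes was not tested.

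Within a level, Slpi was set against the mean log2 intensity of 5 cell type lists, 10 relations in all, and no relation passed adjustment in permutation tests. With the neutrophil list, r was 0.40 in the higher level (permutation p = 0.0859, adjusted 0.215, rho = 0.27 with p = 0.272) and 0.54 in the lower (p = 0.0173, adjusted 0.0928, rho = 0.39 with p = 0.0985), with n = 19 each. Without the 2 arrays farthest from the median of the list, these were 0.36 and 0.48. For strains up to 42 and later ones, r was -0.16 and 0.55 in the higher level, and 0.14 and 0.83 in the lower. With the B cell list, r was -0.49 in the higher level (permutation p = 0.0281, adjusted 0.0938, rho = -0.43 with p = 0.0666) and -0.53 in the lower (p = 0.0186, adjusted 0.0928, rho = -0.41 with p = 0.0794). Without the 2 farthest arrays these were -0.26 and -0.41. Without BXD48, r in the higher level was 0.21 with the neutrophil and -0.36 with the B cell list. By series the B cell relation was -0.22 and -0.55 in the higher level, and -0.40 and -0.60 in the lower. On 10 of the lower arrays Slpi was at background by its deposited detection p-value, so their order carries little information.

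The pancreas list did not follow Slpi within a level. Its r was 0.11 in the higher level (permutation p = 0.682, adjusted 0.842, rho = -0.07 with p = 0.789) and 0.14 in the lower (p = 0.558, adjusted 0.797, rho = 0.20 with p = 0.42). Without the 2 farthest arrays r was -0.36 and 0.22, and without BXD48 it was -0.24 in the higher level. By series it was -0.27 and 0.24 in the higher level and 0.26 and -0.21 in the lower. The remaining lists, of macrophage and epithelial genes, had r between -0.36 and 0.17 with adjusted p-values of 0.271 and above by permutation. Without BXD48, r in the higher level was -0.31 with the epithelial list and -0.04 with the macrophage list, against -0.03 and 0.07 with it.

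**Figure D5:**
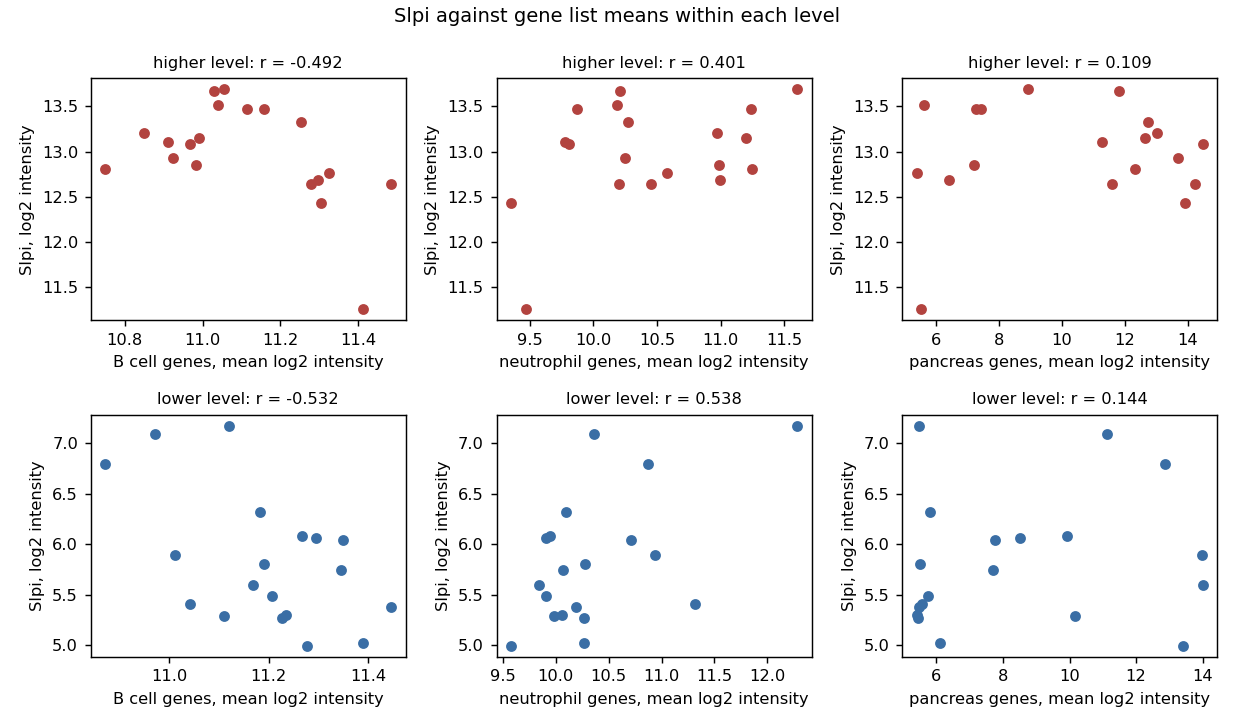
Log2 intensity of Slpi (y axis) against the mean log2 intensity of B cell, neutrophil and pancreas genes (x axis), for the higher level (top, red) and the lower level (bottom, blue), with 1 point per array. The isolated low point in the top panels is BXD48, and the isolated high neutrophil value in the bottom middle panel is BXD70.

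The differences were then compared between the strain series, since both strain series held arrays of both levels. In a fit with an interaction of Slpi level and series, 0 of 17582 probes passed (0%), with 650 at an unadjusted p under 0.05 by limma and a smallest adjusted p of 0.999. The Sys1 log2 difference was -1.04 ± 0.13 (SE) up to strain 42 and -1.001 ± 0.15 from strain 43. For ILMN_1227948 these were -0.92 ± 0.11 and -0.71 ± 0.15, for Ada -0.51 ± 0.16 and -0.67 ± 0.15, and for Tomm34 0.21 ± 0.09 and 0.43 ± 0.07. The interaction of Tomm34 had an unadjusted p of 0.0518 in limma. Fitted alone, the early strains called Sys1 and ILMN_1227948, and the later strains Sys1 and Tomm34.

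Flow cytometry traits were not distinguishable between the levels. The sources used here do not give their tissue or gates. They were available for 18 strains of the higher and 16 of the lower level, and 4 strains had none. The T to B cell ratio, as a natural log, ran from -2.11 to 0.36 in the higher and from -1.003 to 0.44 in the lower level, with a difference of -0.256 ± 0.178 (SE, permutation p = 0.177, adjusted 0.313 over 3 traits). The natural log of the CD4+ to CD8+ ratio ran from -0.01 to 1.15 and from 0.01 to 0.84, with a difference of 0.0897 ± 0.0982 (permutation p = 0.379). The third trait, the natural log of the median signal for MHC class II of B cells, ran from 3.12 to 4.15 and from 3.02 to 4.06, with a difference of -0.128 ± 0.0987 (permutation p = 0.209, adjusted 0.313). In both strain series the 3 differences kept their direction.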

How the data were processed

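The intensity of each probe on each array was deposited without normalization, next to a detection p-value, per the file headers. A processed version, log2-like in scale and not centred, was deposited by the authors as well. The submitters' processing notes name lumi, and the sources used here give no transformation for it. The traits are natural log values, per the labels. Some bright probes have high deposited detection p-values (18836 of 231278 values above 500 are at 0.01 or more), so each was replaced by a running median over neighbours in intensity. Background correction and quantile normalization used the neqc function (limma 3.58.1, R 4.3.3) at an offset of 16, with tables read by data.table (version 1.17.8). Probes under 0.01 on at least 3 arrays were kept (17583, Slpi included). Of 34492 probes, 20256 had 1 symbol, 9 several and 14227 none in GEO's platform annotation, and 20213 of the first matched GRCm38.p6 genes, used for names and gene order. The levels were compared by lmFit and eBayes of limma with Benjamini-Hochberg adjustment over all probes except that of Slpi, and the fit was tested on simulated data. Traits and correlations used two-sided permutation tests with 1e+05 resamples, exact ones within a series. Named were the called genes, up to 4 genes per list with the widest differences, and genes said to be added after their values were seen. The probe of highest mean stood for a gene in the lists, and differing probes of a gene are given. The members, lists and tests were chosen with earlier results of these data known. Alternatives covered detection p-values, background, filter, covariates, split, series and each array left out. The number of arrays limits the precision.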

Additional observations from a re-analysis of the deposited data

How the results depend on the processing

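The 4 calls became 3 to 5 under 14 of the other settings, and 2 in strains numbered up to 42 alone and 2 in later strains alone, where fewer arrays were fitted. The 3 calls on chromosome 2 became 1 in the strains up to 42. Leaving out each array, an alternative chosen after seeing the data, gave 3 to 5 calls in all, 2 to 4 on chromosome 2 and 0 on other named chromosomes. Sys1 passed in every one of these fits (log2 difference from -1.08 to -0.44), Tomm34 in 15 of 16 settings, ILMN_1227948 in 14 of 15 and Ada in 9 of 16. Another probe without a gene symbol, ILMN_2698673, was called when BXD6 alone, BXD28 alone or BXD73 alone was left out. The interaction with series had 0 calls in 5 added alternatives, and the 3 traits kept direction in 6. Within levels, the correlation of Slpi with epithelial genes in the higher level turned from -0.0341 to 0.0711 with deposited detection p-values and 0.0248 in the authors' table (the cause was not tested). With male arrays only, the lower level's relations passed for neutrophil (r = 0.67, permutation adjusted p = 0.0243) and B cell genes (r = -0.63, permutation adjusted p = 0.0351). BXD70, labelled male, had the highest Slpi value (7.17) and neutrophil score (12.28) of that level. Slpi was at background on 10 of the lower arrays of both sexes, so these relations carry little weight. No paired analysis was possible because each strain had 1 array and so fell in 1 level only. Signal over background limits the lower Slpi level and dim probes such as Wfdc2.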
